A study of Danio rerio with 3 samples.

Results

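Transcript levels of 10 endoplasmic reticulum (ER) chaperone genes were measured in single cells of 3 zebrafish livers. The genes were fixed by name: the chaperones hspa5, hyou1 and hsp90b1, the co-chaperones dnajb11 and sdf2l1, the protein disulfide isomerases pdia3, pdia4 and pdia6, the lectin chaperone canx, and xbp1, a transcription factor of the unfolded protein response. The genes were chosen with earlier results of these data known. All 10 were listed in all 3 libraries, among 11233 genes that the libraries shared.

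The first library, here called HepABC, came from a Tg(fabp10a-pt-β-catenin) zebrafish that was not treated and had hepatocellular carcinoma (HCC). The second, CreLox, came from a Tg(fabp10a-CreERT2;fabp10a-flox-β-catenin) zebrafish with HCC, and the third, the control, from a Tg(fabp10a-flox-β-catenin) zebrafish without HCC. Both of these had received 10 µM 4-hydroxytamoxifen as larvae, between days 3 and 6 after fertilization. All 3 fish were adult males of 6 months, and each gave 1 liver, so that line, tamoxifen, diagnosis and library cannot be told apart. The fabp10a promoter drives each transgene in hepatocytes, and in the CreLox line activated β-catenin is expressed only in hepatocytes in which Cre recombined the switch. The HepABC fish also carried the Wnt reporter Tg(7xTCF-Xla.Siam:mCherry). One part of each liver was diagnosed by histology, and the rest was dissociated with trypsin before droplet capture and 3′ tag sequencing.

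Secreted and membrane proteins enter the ER unfolded and are folded there by chaperones. BiP, the product of hspa5, binds exposed hydrophobic stretches and releases them as it uses ATP, with help from J-domain co-chaperones and exchange factors. Disulfide isomerases form and reshuffle disulfide bonds, and calnexin (canx) holds glycoproteins through their sugars. When unfolded protein builds up, the sensors Ire1, Perk and Atf6 start the unfolded protein response, and spliced xbp1 and cleaved Atf6 then switch on chaperone genes. Hepatocytes secrete most plasma proteins and are rich in ER. A gene count does not separate spliced from unspliced xbp1 transcripts.

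The HepABC library held 2866 cells, the CreLox library 2112 and the control library 1077. Cells with at least 10000 unique molecular identifiers (UMIs, one for each captured transcript molecule) are called deep cells: 1938, 186 and 213 cells, with medians of 20802, 24906 and 17048 UMIs. Cells with fewer than 5000 UMIs are called shallow cells and numbered 537, 1792 and 793. Summed levels of 14 hepatocyte markers were 183430, 193430 and 280820 UMIs per 1000000 UMIs (counts per 1000000, CPM) in deep cells. Macrophage, lymphocyte and endothelial marker lists summed to between 4.53 and 113 CPM in deep cells. Erythrocyte markers summed to 1458 CPM in deep cells of the control library, against 0.597 CPM in HepABC and 1.02 CPM in CreLox. Cholangiocyte markers summed to 2021, 1495 and 221 CPM in deep cells of HepABC, CreLox and control. Of these, epcam and sox9b reached at most 0.812 CPM, so that other genes of the list gave nearly all of the sum. Thrombocyte markers summed to 678, 995 and 1121 CPM in the same cells, from 3, 1 and 2 genes with UMIs. Mitochondrial transcripts took 6.48%, 6.13% and 8.81% of UMIs in these deep cells. The part of these marker levels in the results was not tested. The libraries shared between 1 and 8 cell barcodes per pair.

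Each group was 1 library, so no test between conditions was possible and no p-value is given. Levels are summed UMIs in CPM with exact Poisson 95% intervals, and ratios carry exact 95% intervals for a pair of counts, both of which cover counting error only and not the spread between fish. A gene is counted as higher or lower where its ratio is at least 2-fold.

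In deep cells, most of the ER folding genes were several-fold lower in the HepABC tumor than in either of the other livers, whereas pdia3 and xbp1 were not. In HepABC against control, 7 of the 10 genes were at least 2-fold lower (hspa5, hyou1, hsp90b1, dnajb11, sdf2l1, pdia4 and canx), against 8.15% of the 9513 genes tested. None of the 10 was at least 2-fold higher, against 30.3% of genes tested. In HepABC against CreLox the same 7 genes were lower and none was higher, against 15.0% lower and 12.6% higher among 9938 genes tested. In CreLox against control, pdia3 alone was at least 2-fold higher, against 25.3% of 6414 genes tested, and none was lower, against 2.87%. The pdia3 call was lost with libraries scaled by the trimmed mean of M-values (TMM), at a ratio of 1.46 and with 12.0% of genes tested higher, and with ratios centred on the median gene, with 11.8% higher. The HepABC and control libraries each enter a pair of these comparisons, as does CreLox, so the comparisons are not independent of each other. Because the 10 genes were chosen with earlier results of these data known, their counts beside all genes are a description only.

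**Figure D1:**
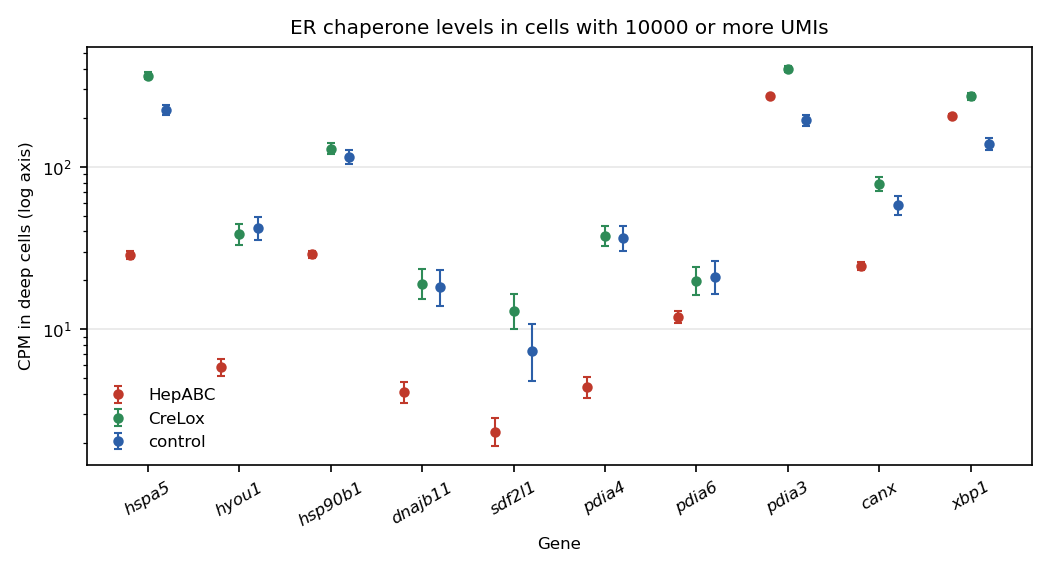
CPM of the 10 genes in deep cells (log axis) by library, with exact Poisson 95% intervals that cover counting error only. HepABC lies lowest for 8 of the 10 genes, from 28.9 CPM for hsp90b1 to 2.34 CPM for sdf2l1, and between the other libraries for pdia3 and xbp1.

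hspa5 encodes BiP, the main Hsp70 chaperone of the ER. It was measured at 28.6 CPM (95% interval 27.1 to 30.3, 1246 UMIs) in deep cells of HepABC, 364 CPM (348 to 382, 1794 UMIs) in CreLox and 223 CPM (208 to 240, 789 UMIs) in control. The 3 intervals do not overlap, with HepABC far lowest and CreLox highest. The level in HepABC was 7.81-fold lower than in control (7.13 to 8.54) and 12.7-fold lower than in CreLox (11.8 to 13.7). In CreLox it was 1.63-fold higher than in control (1.499 to 1.78), and 39.6% of genes tested had a higher ratio. With TMM scaling that ratio of CreLox to control was 1.15. Of the genes tested, 1.198% had a lower ratio than hspa5 in HepABC against control.

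hyou1 encodes a large Hsp70-related protein that acts as a nucleotide exchange factor for BiP. It was at 5.83 CPM in HepABC, 38.4 CPM in CreLox and 41.9 CPM in control deep cells. HepABC was again lowest, 7.18-fold below control (5.83 to 8.83) and 6.58-fold below CreLox (5.42 to 7.97), while the intervals of the other pair overlapped. hsp90b1 encodes Grp94, the ER member of the Hsp90 family. It was at 28.9 CPM in HepABC, 129 CPM in CreLox and 115 CPM in control. HepABC was 3.99-fold below control (3.56 to 4.46) and 4.47-fold below CreLox (4.06 to 4.92), and the ratio of CreLox to control was 1.12 (0.988 to 1.27).

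The co-chaperones were the least abundant of the 10 in UMIs. dnajb11, which encodes a J-domain protein that delivers substrates to BiP, was at 4.11 CPM in HepABC (179 UMIs), 19.1 CPM in CreLox (94 UMIs) and 18.1 CPM in control (64 UMIs). HepABC was 4.41-fold below control (3.26 to 5.90), and CreLox and control lay within each other's intervals. sdf2l1 encodes a small partner of ER J-domain proteins. It was at 2.34 CPM in HepABC (102 UMIs), 13.0 CPM in CreLox (64 UMIs) and 7.36 CPM in control (26 UMIs). HepABC was 3.14-fold below control (1.96 to 4.87), and CreLox was 1.77-fold above it (1.103 to 2.90).

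The 3 disulfide isomerases did not share one pattern. pdia4 was at 4.39 CPM in HepABC, 37.6 CPM in CreLox and 36.2 CPM in control, so that HepABC was 8.26-fold below control (6.55 to 10.4) and the other pair had a ratio of 1.04 (0.823 to 1.31). pdia6, whose human protein also restrains the sensor IRE1, was at 11.9 CPM in HepABC, 19.9 CPM in CreLox and 21.0 CPM in control. It was 1.76-fold lower in HepABC than in control (1.36 to 2.25) and did not reach the 2-fold mark. pdia3, which works on glycoproteins together with calnexin and calreticulin, was at 272 CPM in HepABC, 400 CPM in CreLox and 193 CPM in control. It was therefore lowest in the liver without HCC, with ratios to it of 1.41 (1.30 to 1.52) in HepABC and 2.07 (1.89 to 2.26) in CreLox.

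canx, the membrane-bound lectin chaperone, was at 24.5 CPM in HepABC, 78.6 CPM in CreLox and 58.0 CPM in control. HepABC was 2.37-fold below control (2.03 to 2.75) and 3.20-fold below CreLox (2.85 to 3.60). CreLox was 1.35-fold above control (1.14 to 1.61), a direction that turned to 0.954 with TMM scaling. xbp1 was at 207 CPM in HepABC, 272 CPM in CreLox and 138 CPM in control. Like pdia3 it was lowest in deep cells of the liver without HCC, at ratios of 1.49 (1.36 to 1.64) for HepABC and 1.96 (1.77 to 2.18) for CreLox. In shallow cells control had the highest xbp1, at 379 CPM against 335 CPM in HepABC and 329 CPM in CreLox. The shallow ratio to control was 0.884 (0.776 to 1.01) for HepABC and 0.867 (0.780 to 0.965) for CreLox.

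Many genes had a higher CPM in the tumor libraries than in control. The median log2 ratio of all genes tested was 0.48 for HepABC and 0.52 for CreLox against control, and −0.04 between the tumor libraries. Relative to that median, the log2 ratio of pdia3 was 0.01 and that of xbp1 was 0.10 in HepABC against control, whereas hspa5 lay at −3.45 and pdia4 at −3.53. In CreLox against control, the log2 ratios relative to the median ran from −0.65 for hyou1 to 0.53 for pdia3. With TMM scaling, hsp90b1, dnajb11, pdia4, pdia6, hyou1 and canx had ratios of CreLox to control under 1, from 0.646 to 0.954, so no direction is given for these in that comparison.

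**Figure D2:**
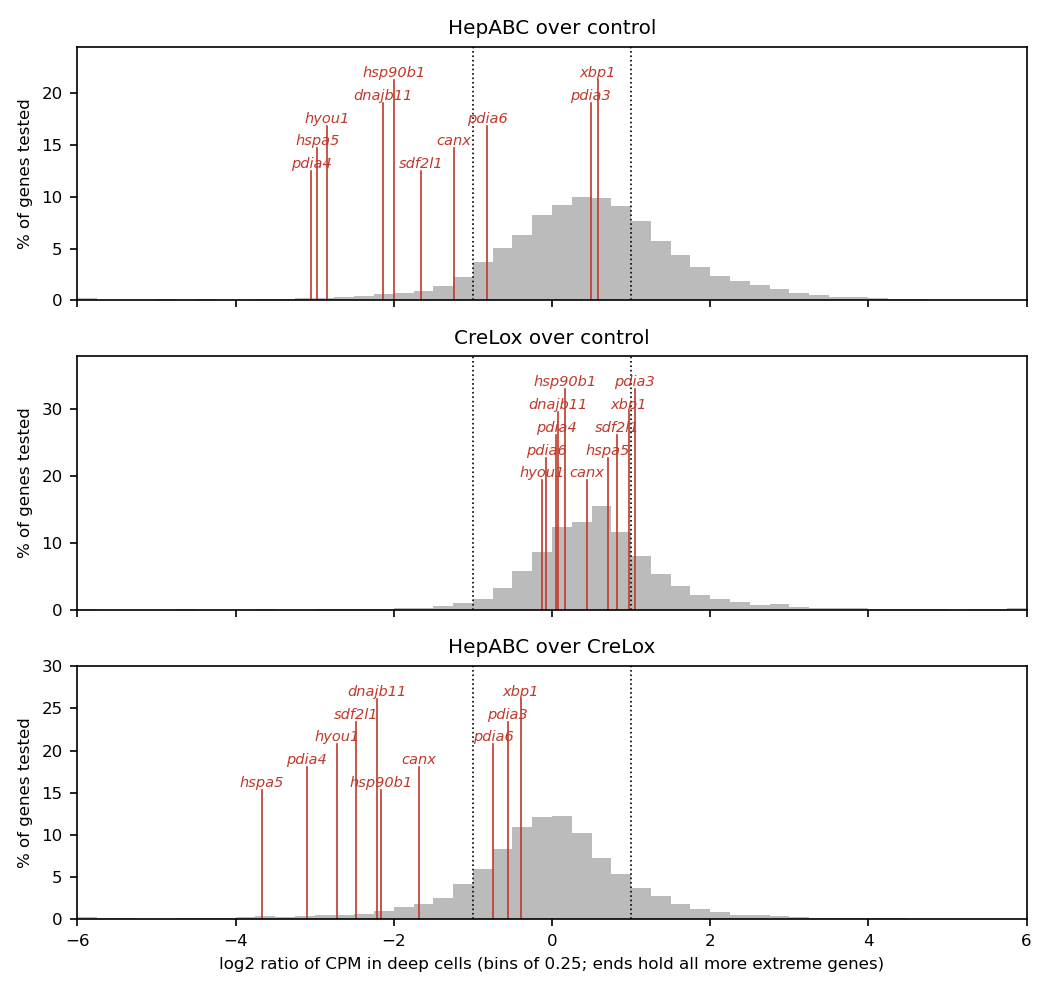
Log2 ratios of CPM in deep cells for all genes tested (grey bars, percent of genes per bin of 0.25) and for the 10 ER chaperone genes (red lines, with heights that only separate the names) in the 3 comparisons, with dotted lines at 2-fold. In both comparisons of HepABC 7 of the 10 genes lie left of the 2-fold mark, and in CreLox over control only pdia3 lies past it.

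The summed level of the 10 genes was 589 CPM in HepABC (582 to 596), 1372 CPM in CreLox (1339 to 1405) and 853 CPM in control (823 to 884). The ratio to control was thus 0.690 (0.665 to 0.717) in HepABC and 1.61 (1.54 to 1.68) in CreLox, and HepABC over CreLox was 0.429 (0.418 to 0.441). The makeup of the sum also differed. pdia3 and xbp1 gave 46.15% and 35.1% of its UMIs in HepABC, but 22.7% and 16.2% in control. hspa5 gave 4.86% in HepABC, 26.6% in CreLox and 26.2% in control. Without pdia3 and xbp1, an alternative chosen after seeing the data, the summed ratio of HepABC to control was 0.212.

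The low level of hspa5 in HepABC was present at every depth. In deep cells of HepABC hspa5 lay between 24.8 and 30.9 CPM over 4 depth classes with lower bounds of 10000, 15000, 20000 and 30000 UMIs. The corresponding range was 285 to 407 CPM in CreLox and, with no cell of 30000 UMIs or more, 203 to 237 CPM in control. Restricting deep cells to 10000 to 20000 UMIs, also chosen after seeing the data, left a ratio of HepABC to control of 0.125 for hspa5, 0.119 for pdia4 and 0.124 for hyou1.

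To compare single cells at one depth, each deep cell was thinned to 10000 UMIs. hspa5 was then detected in 21.1% of 1938 cells in HepABC (exact binomial interval 19.3% to 22.9%), 88.7% of 186 cells in CreLox (83.3% to 92.9%) and 79.3% of 213 cells in control (73.3% to 84.6%). hsp90b1 was detected in 24.9%, 60.8% and 60.1% of these cells, and pdia4 in 4.33%, 28.0% and 26.3%. pdia3 was detected in 91.2%, 95.2% and 84.0%, so that the shares followed the order of the summed levels. No deep cell was left out by the thinning. Without it, hspa5 was detected in 35.1% of these cells in HepABC, 95.2% in CreLox and 92.5% in control, hsp90b1 in 43.3%, 83.3% and 75.6%, pdia4 in 9.08%, 53.8% and 38.5%, and pdia3 in 97.9%, 98.9% and 94.8%.

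Per thinned cell, the 10 genes together gave a median of 6 UMIs in HepABC (lowest 0, highest 46), 13 in CreLox (3 to 34) and 8 in control (0 to 40). The ranges overlapped, while the bulk of the cells was shifted. At least 5 of the 10 genes were detected in 5.57% of HepABC cells, 62.9% of CreLox cells and 52.1% of control cells. The variance of hspa5 UMIs over their mean was 1.65, 2.57 and 1.97, against 1.24, 1.37 and 1.07 for pdia3. Counting error alone would give 1. This measure can rise with the mean, which for hspa5 was 0.289, 3.63 and 2.24 UMIs in HepABC, CreLox and control. It therefore does not rank the libraries by how much hspa5 varied between cells.

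**Figure D3:**
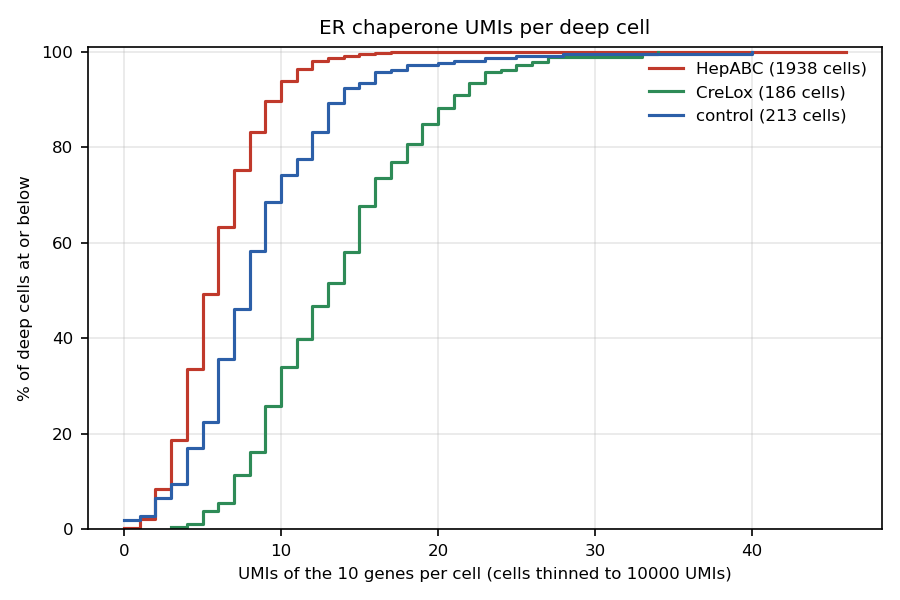
Cumulative percent of deep cells by the UMIs of the 10 genes per cell, after each cell was thinned to 10000 UMIs (1938, 186 and 213 cells). The medians are 6 UMIs in HepABC, 8 in control and 13 in CreLox, and the HepABC curve lies left of the CreLox curve over nearly its whole range.

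Correlations between members over the deep cells of a library were weak and of either sign. The highest Pearson correlations of log-transformed thinned UMIs were between hspa5 and hsp90b1, with r = 0.28 over 213 cells of control and r = 0.28 over 186 cells of CreLox. In HepABC the same pair had r = 0.12 over 1938 cells. The lowest were with xbp1 in CreLox, at r = −0.25 for hsp90b1 and −0.16 for hspa5, while hspa5 and xbp1 had r = 0.14 in control and 0.09 in HepABC. These are sparse counts from cells that share a library, and the values are given as a description only. Among 812 genes with at least 0.5 UMIs per thinned cell in all libraries, those most like the summed members were cbln8 (mean r over the 3 libraries 0.20), ambp (0.20), f2 (0.19), cfb (0.18) and tfa (0.18). In HepABC alone, r for these genes was 0.05, 0.05, 0.12, 0.08 and 0.17. It was 0.34, 0.23, 0.27, 0.21 and 0.13 in CreLox, and 0.22, 0.31, 0.18, 0.26 and 0.23 in control. ambp, f2, cfb and tfa encode secreted plasma proteins: alpha-1-microglobulin/bikunin, prothrombin, complement factor B and transferrin. Of the members, only pdia3 and xbp1 were abundant enough to be ranked, at places 38 and 461.

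The other genes of the secretory pathway were read from lists by function, also chosen with earlier results of these data known. Of 38 other ER folding genes, 27 were tested in HepABC against control, and 13 were at least 2-fold lower and 1 (fkbp14) higher, against 8.15% and 30.3% of all genes. manf, a small ER-resident protein secreted under stress, was at 5.95 CPM in HepABC and 47.9 CPM in control, 8.04-fold lower (6.59 to 9.80). ero1b, the oxidase that recharges disulfide isomerases, was 7.52-fold lower (6.42 to 8.80). The disulfide isomerase p4hb was 3.43-fold lower and the cyclophilin ppib 2.07-fold lower. In HepABC against CreLox, 13 of 27, manf among them (7.61-fold), were again lower and none was higher, against 15.0% and 12.6% of all genes. In CreLox against control, 4 of 25 (16.0%) were higher and 1 (4.00%) was lower, fkbp11 (6.17-fold), against 25.3% and 2.87% of all genes.

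Among sensors and effectors of the unfolded protein response, the counts lay near the shares of all genes. In HepABC against control, 6 of 18 (33.3%) were at least 2-fold higher, against 30.3% of genes tested, and 1 (5.56%), the sensor atf6, was lower, at 5.08 against 11.3 CPM, against 8.15%. chac1, a glutathione-degrading target of the Perk branch, was at 199 CPM in HepABC and 73.1 CPM in control, 2.73-fold higher (2.41 to 3.10). creb3l3a, which encodes a liver-enriched ER-anchored transcription factor, was 5.17-fold higher (4.06 to 6.68). In CreLox against control, 5 of 17 (29.4%) were higher and none lower, against 25.3% and 2.87%, among them creb3l3a (3.65-fold) and atf4a (2.48-fold). The median log2 ratio of this list was 0.72 and 0.46 in these comparisons, beside 0.48 and 0.52 for all genes tested.

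The lists for the steps around folding differed among themselves. For ER export and retrieval, 7 of 21 genes were lower in HepABC than in control and none higher, against 8.15% and 30.3% of genes tested, including the cargo receptor lman1 (2.81-fold) and the fusion protein sec22ba (4.05-fold). For N-glycosylation, 3 of 15 genes were lower than in control (dad1 3.35-fold, rpn2 5.38-fold, alg2 5.28-fold). Against CreLox, 10 of 16 were lower, dad1 by 5.08-fold, and none higher, against 15.0% and 12.6% of genes tested. For translocation and signal peptide cleavage, 4 of 22 (18.2%) were lower than in control (tram1 3.74-fold) and 2 (9.09%) were higher (ssr4 2.21-fold). For ER-associated degradation 2 of 18 (11.1%) were lower, sel1l and syvn1, and 3 (16.7%) were higher. The shares of all genes tested were 8.15% lower and 30.3% higher, so the lower count for degradation lay near that of all genes.

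Chaperones of the cytosol did not share the low levels of the ER genes in HepABC, where their counts lay near the shares of all genes. Their median log2 ratio in HepABC against control was 0.61, beside 0.48 for all genes tested. Against CreLox, 2 of 16 (12.5%) were lower and none higher, against 15.0% and 12.6%. In HepABC against control, 6 of 15 (40.0%) were at least 2-fold higher and 1 was lower, against 30.3% and 8.15% of genes tested, with hsp90ab1 at 2603 against 1008 CPM (2.58-fold, 2.50 to 2.67) and hspa8 2.05-fold higher. In CreLox against control, 8 of 13 (61.5%) were higher, against 25.3%, and none lower, with hspa8 2.56-fold higher. Genes known to respond to tissue dissociation were near the shares of all genes: 4 of 15 (26.7%) were higher and none lower in HepABC against control, against 30.3% and 8.15%, and 4 of 14 (28.6%) higher and none lower in CreLox against control, against 25.3% and 2.87%, while between the tumor libraries 2 of 16 (12.5%) were lower and none higher, against 15.0% and 12.6%. Their part in the chaperone levels was not tested.

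**Figure D4:**
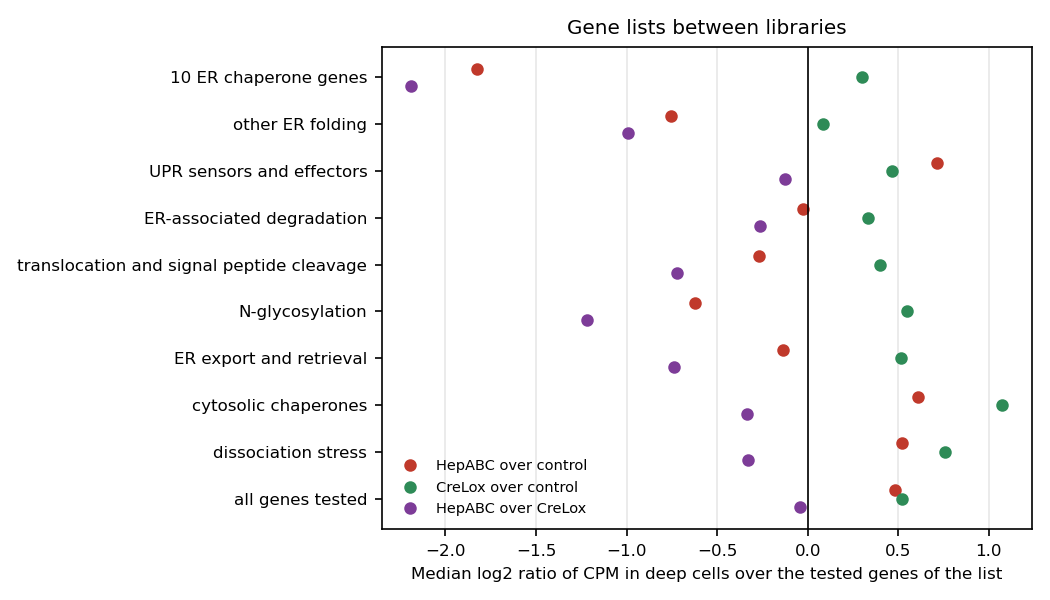
Median log2 ratio of CPM in deep cells over the tested genes of each list, for the 3 comparisons between libraries. The 10 ER chaperone genes lie at −1.82 in HepABC over control and −2.19 over CreLox, against 0.48 and −0.04 for all genes tested, and cytosolic chaperones at 0.61 and −0.33.

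The CreLox library consisted mostly of shallow cells, 1792 of its 2112 (84.8%), with a median of 1524.5 UMIs and 1.99% mitochondrial UMIs, against 6.13% in its deep cells. Within this library, 5 of the 10 genes were at least 2-fold lower in shallow than in deep cells, against 7.24% of 7916 genes tested, and none was higher, against 32.3%. The median log2 ratio of all genes was 0.60. hspa5 was at 165 CPM in shallow and 364 CPM in deep cells, 2.21-fold lower (2.01 to 2.44). hsp90b1 (2.18-fold), pdia4 (2.18-fold), canx (2.26-fold) and hyou1 (2.40-fold) were lower by similar amounts, and pdia3 was 1.18-fold lower (1.098 to 1.27). In CPM, xbp1 was 1.21-fold higher in the shallow cells (1.11 to 1.31), and pdia6, dnajb11 and sdf2l1 had intervals that included 1. Relative to the median of all genes, however, the log2 ratio of xbp1 was −0.33, and 64.7% of genes tested had a higher ratio.

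The summed level of the 10 genes was 1012 CPM in shallow and 1372 CPM in deep CreLox cells, a ratio of 0.737 (0.707 to 0.769). The hepatocyte transcript fabp10a had a ratio of 0.979 between the same cells, and tfa one of 0.445. Of the shallow cells, 458 (25.6%) had a UMI of c1qb, ccl38.6 or tmem88a. In the other 1334 shallow cells, hspa5 was at 172 CPM and canx at 26.9 CPM, ratios to deep cells of 0.471 (0.422 to 0.525) and 0.343 (0.259 to 0.448). Depth, mitochondrial share and cell makeup moved together between these cell sets, and their part in the difference was not tested.

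Shallow cells of the other libraries gave other ratios. hspa5 was at 45.1 CPM in shallow and 28.6 CPM in deep cells of HepABC, a ratio of 1.58 (1.19 to 2.05), and at 148 and 223 CPM in control, a ratio of 0.662 (0.565 to 0.773). Cells with a UMI of any of the 3 markers made up 58.8% of shallow cells in HepABC and 50.2% in control. Between libraries, shallow cells kept the low hspa5 of HepABC, at 0.305 of control (0.223 to 0.411) and 0.274 of CreLox (0.205 to 0.361). The hspa5 difference was smaller than in deep cells. In shallow cells the summed ratio of CreLox to control was 0.989 (0.929 to 1.05), and that of hspa5 was 1.11 (0.945 to 1.31). pdia3 lay above 1 (1.27), while pdia4 (0.529), canx (0.717) and xbp1 (0.867) lay below 1. The intervals of the other members included 1. For HepABC against CreLox, the shallow intervals of pdia4, pdia6, canx and xbp1 included 1, and the other members lay below 1.

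Non-hepatocyte cells were followed through cells under 5000 UMIs with a UMI of c1qb, a complement gene of macrophages, of ccl38.6, a chemokine gene, or of tmem88a, a gene of endothelial cells. The c1qb cells numbered 212 in HepABC, 171 in CreLox and 133 in control, and their summed macrophage markers were 39213, 31897 and 52647 CPM. The ccl38.6 cells numbered 100, 252 and 227, with lymphocyte markers at 8172, 14189 and 10100 CPM. Macrophage markers in the ccl38.6 cells summed to 7155, 3128 and 8173 CPM. The tmem88a cells numbered 32, 62 and 64, with endothelial markers at 5929, 5550 and 4136 CPM. Each list includes the gene by which its cells were chosen, so its sum is raised by that choice. Between 25 and 28 shallow cells per library had UMIs of more than 1 of the markers. The hepatocyte transcript fabp10a was still present in these barcodes, relative to deep cells of the same library, at 28.0%, 38.3% and 27.1% in c1qb cells, 52.0%, 39.4% and 33.2% in ccl38.6 cells and 51.0%, 44.0% and 21.0% in tmem88a cells of HepABC, CreLox and control. Summed hepatocyte markers in the same order were 36235, 49873 and 70780 CPM in c1qb cells and 70285, 50722 and 86712 CPM in ccl38.6 cells. In tmem88a cells they were 61341, 53197 and 53348 CPM. They exceeded the macrophage, lymphocyte or endothelial sum of the set everywhere but in c1qb cells of HepABC. The levels in these sets thus include hepatocyte RNA, which differed in amount between libraries.

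The sum of the 10 genes in c1qb cells was 1015 CPM in HepABC, 1340 CPM in CreLox and 1282 CPM in control. Relative to deep cells of the same library this was a ratio of 1.72 (1.58 to 1.88), 0.977 (0.886 to 1.08) and 1.503 (1.34 to 1.68). In ccl38.6 cells the sum was 635, 891 and 914 CPM, with ratios of 1.08 (0.879 to 1.31), 0.649 (0.586 to 0.718) and 1.07 (0.952 to 1.202). In tmem88a cells it was 988, 1281 and 1404 CPM, with ratios of 1.68 (1.30 to 2.13), 0.934 (0.803 to 1.08) and 1.65 (1.44 to 1.87). HepABC had the lowest sum in each of these cell sets as counted, though against CreLox in tmem88a cells the interval of the ratio included 1 (0.772, 0.575 to 1.03). When hepatocyte RNA was taken off in proportion to fabp10a, HepABC stayed lowest in c1qb cells (1182 CPM, beside 1321 in CreLox and 1442 in control), but CreLox was lowest in ccl38.6 cells (684, 579 and 944 CPM) and in tmem88a cells (1403, 1209 and 1550 CPM). No order between the tumor libraries is given for these sets. CreLox had the lowest ratios, over the deep cells with the highest sum. Ratios of all genes between these marker cell sets and deep cells were not computed, so the ratios have no such reference. Between shallow and deep cells of CreLox, the median ratio of all genes tested was 1.52.

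xbp1 was the member with the most UMIs in 8 of the 9 combinations of these cell sets and libraries. In c1qb cells it was at 452 CPM in HepABC, 475 CPM in CreLox and 691 CPM in control, which is 2.19 (1.91 to 2.50), 1.75 (1.47 to 2.06) and 4.99 (4.19 to 5.91) times its level in deep cells. In tmem88a cells it was at 413, 482 and 435 CPM, with ratios of 2.00, 1.77 and 3.14 whose intervals all lay above 1. In ccl38.6 cells, at 290, 293 and 326 CPM, the ratio was 1.40 in HepABC, 1.08 (0.896 to 1.29) in CreLox and 2.36 in control. Where deep cells of the control library had the lowest xbp1, its c1qb cells had the highest. These xbp1 ratios are likewise not set against all genes, so they do not show a rise relative to other genes.

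As counted, hspa5 was lowest in the HepABC library in each of these cell sets. In c1qb cells it was at 65.7 CPM in HepABC (33 UMIs), 125 CPM in CreLox (42 UMIs) and 114 CPM in control (31 UMIs). That was above the deep cells in HepABC, with a ratio of 2.30 (1.57 to 3.24), and below them in CreLox (0.344, 0.247 to 0.467) and control (0.510, 0.344 to 0.730). Between libraries, c1qb cells of HepABC had 0.577 of the hspa5 of control (0.342 to 0.974) and tmem88a cells 0.348 (0.107 to 0.882). When hepatocyte RNA was taken off in proportion to fabp10a, 73.2 and 67.5 CPM of hspa5 remained in c1qb and ccl38.6 cells of control. In those of HepABC, 80.1 and 46.0 CPM remained. In those of CreLox the amount to take off exceeded the UMIs counted, so the result was set to 0 CPM. In tmem88a cells 121, 181 and 209 CPM remained in HepABC, CreLox and control. The RNA taken off was given the makeup of deep cells. In shallow cells of CreLox, fabp10a was at 0.979 of its deep level but hspa5 at 0.452. These remainders carry no interval, and some were set to 0, so no order between libraries is given for them. The amount taken off depends on the transcript used. In c1qb cells of CreLox the ratio to deep cells was 0.383 for fabp10a, 0.226 for apoa2 and 0.176 for tfa. In its ccl38.6 cells these ratios were 0.394, 0.235 and 0.165. Scaling by apoa2 or tfa was not run, so the remainders are given for fabp10a only.

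In CPM, pdia6 was higher in tmem88a cells than in deep cells of each library, with no comparison to all genes. In tmem88a cells it was at 73.7 CPM in HepABC (5 UMIs), 62.0 CPM in CreLox (9 UMIs) and 87.1 CPM in control (16 UMIs), with ratios to deep cells of 6.21 (2.01 to 14.6), 3.11 (1.38 to 6.16) and 4.16 (2.26 to 7.20). In c1qb cells the ratios were 4.02 (2.55 to 6.06), 2.25 (1.21 to 3.90) and 1.40 (0.584 to 2.91). These rest on 5 to 24 UMIs. In ccl38.6 cells the ratios were 0.519 in HepABC (1 UMI, 0.0131 to 2.90), 2.09 in CreLox (1.21 to 3.44) and 1.76 in control (0.896 to 3.20), so that only in CreLox did the interval exclude 1. pdia3 was at 346, 430 and 254 CPM in c1qb cells, close to its deep level in CreLox (1.08, 0.901 to 1.27) and above it in HepABC (1.27, 1.09 to 1.48).

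The rarer members reached few UMIs in these cells. For a count of 0 the bound given is 3 UMIs, which is lower than the exact Poisson bound. hyou1 had 0 UMIs in c1qb cells of HepABC, which allows up to 5.97 CPM, and dnajb11 had 0 in ccl38.6 and tmem88a cells of that library, which allows up to 18.5 and 44.2 CPM. sdf2l1 had 0 UMIs in tmem88a cells of HepABC and CreLox, which allows up to 44.2 and 20.7 CPM. For dnajb11 and sdf2l1 differences between these sets and deep cells were mostly not detectable at this depth.

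**Figure D5:**
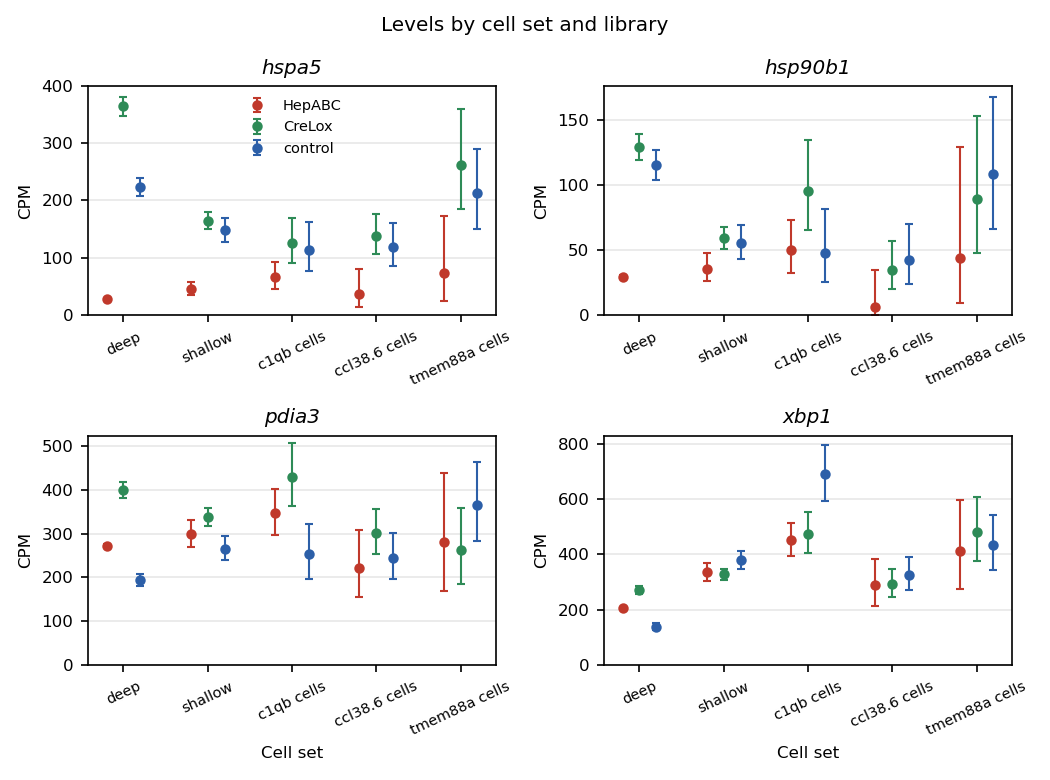
CPM of hspa5, hsp90b1, pdia3 and xbp1 in deep, shallow, c1qb, ccl38.6 and tmem88a cells of each library, with exact Poisson 95% intervals for counting error. Before hepatocyte RNA is taken off, hspa5 in HepABC is lowest in all 5 cell sets (28.6 CPM in deep cells, 65.7 CPM in c1qb cells), and xbp1 is highest in c1qb cells of control (691 CPM).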

How the data were processed

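Single cells of 3 zebrafish livers were captured with 3′ chemistry, version 2. Raw UMI counts per gene and cell were deposited for each library. The authors made these counts with Cell Ranger 2.2.0 against GRCz11, called cells with EmptyDrops and removed outlier cells with scater. Genes are named by symbol only. The libraries list 14713, 12804 and 12386 genes.

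Counts were summed over cells and divided by the UMIs of the same cells, per 1000000 (CPM; Python 3.11.15, scipy 1.17.1). Libraries held 47680774, 9066031 and 5404507 UMIs. Genes were tested against the 2-fold mark where a pair of cell sets had at least 20 UMIs together, and a sum of 0 was set to 3 UMIs. Thinning drew 10000 UMIs per cell without replacement. TMM factors came from edgeR 4.0.16. The ratios, thinning and correlations were tested on simulated data. Doublets and free RNA were not removed. Genes of the 8 other lists were named where past 2-fold in a deep-cell comparison, by most UMIs and at most 4 per list and direction. The 10 genes and all lists were chosen with earlier results of these data known. No sequences or coordinates are used here, and a motif search was not run.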

Additional observations from a re-analysis of the deposited data

Results flagged for a closer look

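For some genes, the level relative to deep cells of the same library lay above 1 in one library and below 1 in another, with each interval clear of 1. The differences between libraries were not tested, and each library is 1 liver. Except for shallow cells of CreLox, ratios of all genes to deep cells were not computed for these sets.

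In c1qb cells, hspa5 had ratios of 2.30 (HepABC), 0.344 (CreLox) and 0.510 (control), and hsp90b1 of 1.72 (HepABC) and 0.414 (control). In shallow cells, hspa5 had ratios of 1.58 (HepABC), 0.452 (CreLox) and 0.662 (control). pdia4 had 2.34 in HepABC and 0.459 in CreLox, and pdia3 had 1.37 in control and 0.845 in CreLox. The summed members had 1.35 in HepABC, 1.199 in control and 0.737 in CreLox.

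In ccl38.6 cells, pdia4 had ratios of 5.62 (HepABC, 4 UMIs, 1.52 to 14.6) and 0.233 (CreLox, 4 UMIs, 0.0628 to 0.607). sdf2l1 had 3.47 (control, 9 UMIs, 1.43 to 7.64) and 0.168 (CreLox, 1 UMI, 0.00420 to 0.972). In tmem88a cells, hyou1 had 7.58 (HepABC, 3 UMIs, 1.55 to 22.4) and 0.130 (control, 1 UMI, 0.00327 to 0.735), and pdia3 had 1.89 (control) and 0.654 (CreLox). The deep-cell levels that these ratios share as denominators differ between libraries, as for hspa5 at 28.6, 364 and 223 CPM.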

How the results depend on the processing

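No paired analysis was possible because each group had 1 library. With 1 liver per group the spread between fish is unknown, and the intervals cover counting error only. The members counted as lower in HepABC numbered 7 or 8 in both comparisons under each of the 7 other count rules. These rules included a mark of 1.5-fold in place of 2-fold. Under these rules 5.39% to 21.7% of genes tested were lower against control, and 9.78% to 26.1% against CreLox. No summed ratio between deep cells of the libraries, between shallow and deep cells of CreLox, or between marker cells and deep cells of one library turned to the other side of 1 where its interval excluded 1.

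The summed ratio of HepABC to control was 0.609 without mitochondrial and the top 20 genes, 0.548 with TMM factors, 0.738 in cells of 20000 UMIs or more, 0.890 without hspa5 and 0.338 as a geometric mean. Chosen after seeing the data, it was 0.665 in cells of 10000 to 20000 UMIs and 0.212 without pdia3 and xbp1. CreLox to control was 1.39 without mitochondrial and top genes, 1.13 with TMM factors, 1.72 from 20000 UMIs, 1.51 without the 5% deepest cells, 1.33 as a geometric mean, 1.52 in cells of 10000 to 20000 UMIs and 1.34 without pdia3 and xbp1. HepABC to CreLox was 0.483 with TMM factors, 0.456 without the 5% deepest cells, 0.556 without hspa5, 0.255 as a geometric mean and 0.158 without pdia3 and xbp1. The members higher in CreLox than in control numbered 4 at 1.5-fold, 0 centred on the median, 2 by per-cell means and 0 with TMM factors. Of all genes tested, 46.5%, 11.8%, 27.1% and 12.0% were higher under the same rules. canx in that comparison had a ratio of 0.954 with TMM factors. CreLox shallow over deep was 0.642 without mitochondrial and top genes and 0.841 without hspa5.

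Free RNA was taken off in proportion to fabp10a only. The sum over deep cells was then 2.01 (HepABC) and 1.69 (control) in c1qb cells. It was 0.422 (CreLox) in ccl38.6 cells and 2.38 (HepABC) in tmem88a cells. ccl38.6 cells of CreLox with at least 2 marker UMIs had 0.568. Between libraries, an alternative chosen after seeing the data, the sum of HepABC over CreLox was then 1.18 in ccl38.6 cells, the other side of 1 from 0.713 as counted, 1.16 in tmem88a cells and 0.894 in c1qb cells, and CreLox over control was 0.613 in ccl38.6 cells. The cause of these shifts was not tested.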

Other observations

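Cells from 5000 to under 10000 UMIs belonged to neither depth class and numbered 391 in HepABC, 134 in CreLox and 71 in control. In these cells hspa5 was at 27.1 CPM in HepABC, 319 CPM in CreLox and 215 CPM in control, which is the same order as in deep cells. xbp1 was at 171, 340 and 257 CPM there, so that HepABC was the lowest of the 3, whereas in deep cells control was the lowest. pdia3 was at 259, 394 and 280 CPM there, with overlapping intervals for HepABC and control. The summed members were at 561 CPM (534 to 589), 1342 CPM (1268 to 1420) and 1086 CPM (996 to 1182).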
